A study of Mus musculus with 24 samples.

Results

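Radiation was compared with no radiation in tumours that all received olaparib and all grew from cells with an empty vector. The 6 tumours are 3 coded IO (IO-726, IO-728 and IO-731, radiation plus olaparib) and 3 coded O (O-722, O-723 and O-724, olaparib without radiation), out of 24 sequenced. The columns of the count table were assigned to these groups by the letters of their code. The tumours were grown under the skin of the flank of female C3H mice aged 6 to 8 weeks, from about 1000000 injected cells of SCC7, a mouse squamous cell carcinoma line. Treatment began at a mean volume near 300 mm3. The IO tumours received X-rays of 8 Gy per day on 3 days, with the rest of the body behind lead. All 6 mice carried NC cells (negative control, empty vector) and received olaparib at 50 mg/kg into the peritoneum, 2 h before each irradiation, with a further dose on the day after the last. The sources used here do not state when the tumours were collected, and each library is the total RNA of a whole tumour. The series as a whole is about the microRNA miR-21-5p, alternative end joining and radiation resistance, and the remaining groups repeat these treatments without olaparib, or in SCC7 cells that overexpress miR-21-5p (OE).

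The written labels name another group for each of these 6 tumours. By treatment and cell type, IO-726 is written as NC with IR, IO-728 and O-723 as NC sham, IO-731 as OE with IR and olaparib, O-722 as OE sham and O-724 as OE with IR. Over the series, the code and the written label differ for 19 of the 24 tumours and name the same group for 5. Library totals over the series ran from 37099055 to 40004502 counted reads, and 16560 of 27368 genes were tested. Levels below are in CPM (counts per 1000000 after TMM scaling of the library size), and a difference is the fitted log2 fold change of IO minus O with its standard error. Means are given with the SD over 3 tumours. A gene was called, and is said to have risen or fallen, at an edgeR quasi-likelihood p below 0.05 after Benjamini-Hochberg adjustment over all tested genes.

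X-rays break both strands of DNA, and broken ends activate the kinases ATM and ATR and the transcription factor p53, which induces inhibitors of the cell cycle and death genes. Olaparib blocks the PARP enzymes that bind nicks and breaks, and thereby hinders single-strand break repair and the polymerase theta route of end joining. Cholesterol, which dividing cells need for new membrane, is made from acetyl-CoA through mevalonate and squalene. SREBP2 is the transcription factor that switches the enzymes of this route on when sterol in the endoplasmic reticulum is low, and LXR is the receptor that switches sterol export on when oxysterols are high.

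Between IO and O, 241 of 16560 genes were called, which is 1.46%, with 136 higher (0.821%) and 105 lower (0.634%). An unadjusted p below 0.05 was reached by 3655 genes, 22.1% of those tested. The median log2 difference over all tested genes was 0.03. Of the 241 called genes, 240 had no overlap between the 3 IO and the 3 O tumours, a pattern that was also seen in 17.7% of all tested genes for higher and 17.6% for lower levels in IO. The lower calls included 16 genes of cholesterol synthesis, and the higher calls included 13 lysosomal genes. Scaled to total counts alone, the split was 120 higher and 59 lower, and the median of all genes was -0.01. The number of calls depended on which libraries entered the fit. With the 6 libraries alone, edgeR called 2195 of 15061 genes (14.6%), 1176 higher (7.81%) and 1019 lower (6.77%), and 231 of the 241 were among them. Leaving out 1 of the 6 tumours from the full fit left 10 genes called without IO-726, 58 without IO-728, 1 without IO-731, 17 without O-722, 27 without O-723 and 43 without O-724. Under the written labels, which set 6 other tumours against each other, edgeR called 0 genes (0%) with 3585 at an unadjusted p below 0.05 (21.6%).

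**Figure D1:**
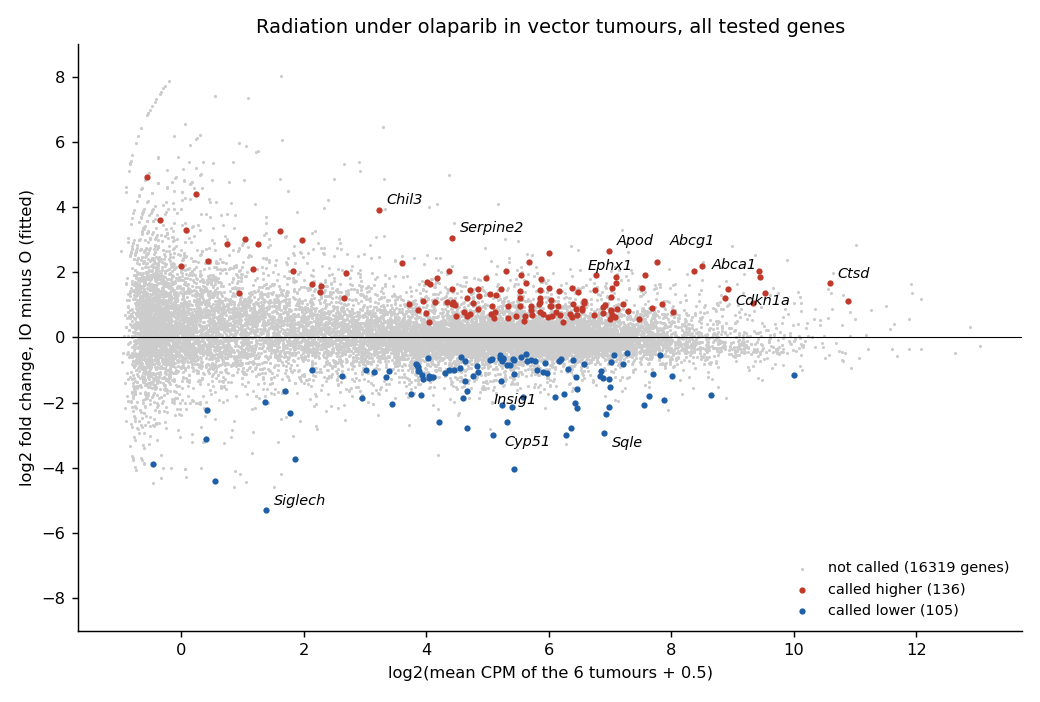
Fitted log2 fold change of IO minus O against the log2 of the mean CPM of the 6 tumours plus 0.5, for each of the 16560 tested genes. The 136 genes called higher are red, the 105 called lower are blue, and the sterol enzymes Cyp51 and Sqle lie far below 0 at middle expression.

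Cdkn1a, which encodes the cell cycle inhibitor p21 and is the classical p53 target (Entrez 12575, chr17:29090979-29100722, GRCm38), served as a check of the coded groups. Before scaling, its level was 716, 691 and 777 CPM in IO-726, IO-728 and IO-731, against 192, 345 and 255 CPM in O-722, O-723 and O-724. All irradiated tumours lay above all others, with the nearest pair being IO-728 and O-723. The difference of the mean log2 levels was 1.50 (two-sided exact permutation p = 0.1, the smallest that 3 against 3 allows). The scaled fit gave 720 ± 42.1 against 255 ± 79.8 CPM and a log2 difference of 1.50 ± 0.24 (edgeR adjusted p = 0.00763). The code was adopted as the reading of the groups after p53 targets had been seen to follow it, so the values of these genes are no independent evidence of an effect.

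Of the 40 listed p53 targets, 11 rose and 0 fell, beside 0.821% risen and 0.634% fallen of all tested genes. Their median log2 difference was 0.65 against 0.03 for all tested genes. The smallest adjusted p of the list was that of Ephx1, an epoxide hydrolase that detoxifies reactive compounds, at 365, 226 and 312 CPM in the irradiated tumours and 59.5, 99.6 and 81.4 CPM in the others. Its log2 difference was 1.91 ± 0.30 (edgeR adjusted p = 0.00684), with IO-728 the lowest of its group here. Ccng1, cyclin G1, which recruits a phosphatase to the p53 circuit, rose from 284 ± 37.2 to 651 ± 66.8 CPM (log2 difference 1.20 ± 0.19, edgeR adjusted p = 0.00763). The other 8 that rose were Trp53cor1, the long noncoding RNA also called lincRNA-p21, Trp53inp1, Dcxr, the death receptor gene Fas, Cd80, Ak1, Zmat3, an RNA-binding regulator of splicing, and Phlda3, an inhibitor of AKT. Their log2 differences ran from 0.74 for Phlda3 to 2.04 for Trp53cor1. Mdm2, the ubiquitin ligase that degrades p53, was not called, at 450, 439 and 457 CPM in IO against 175, 327 and 192 CPM in O (edgeR adjusted p = 0.16). Again the groups did not overlap, and O-723 was the highest of the unirradiated tumours. In the fit of the 6 libraries alone, 19 of the 40 rose, as did 7.81% of all genes tested there. Leaving out 1 of the 6 tumours left between 0 (without IO-731 or O-722) and 6 (without IO-728) of them called.

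**Figure D2:**
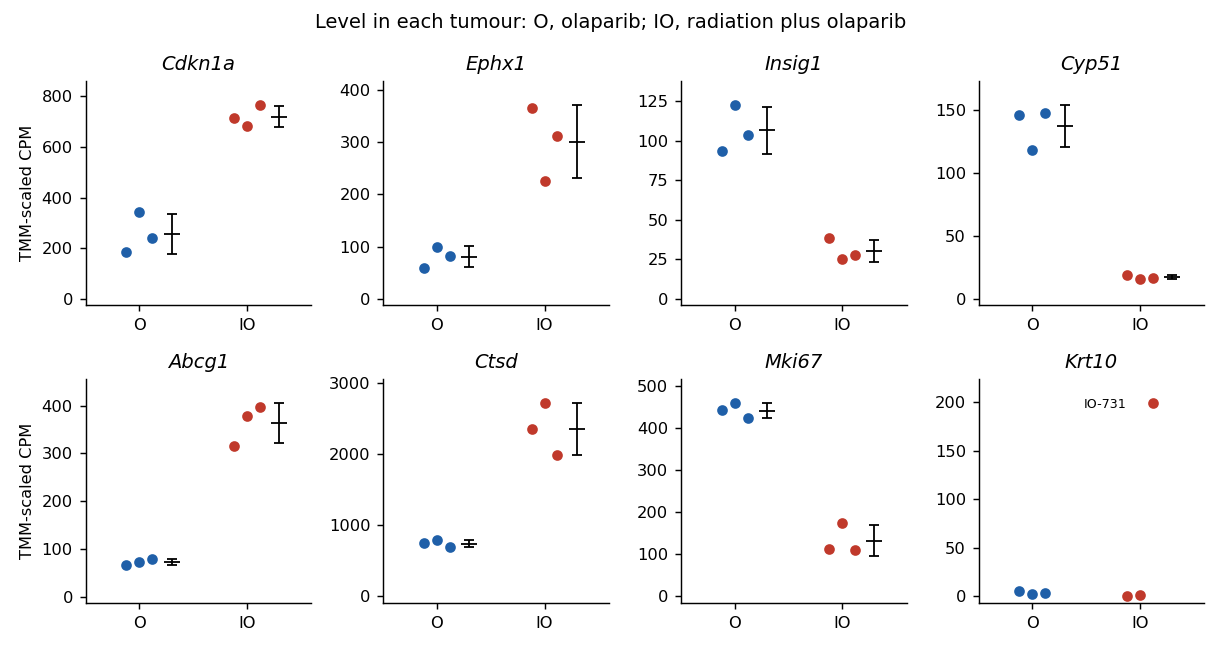
TMM-scaled CPM of 8 genes in each tumour, with O in blue and IO in red. The black bars are the mean and SD of 3 tumours and are left out for Krt10, the last panel, where IO-731 stands alone at 199 CPM.

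Cholesterol synthesis held more called genes than any other of the 41 lists. Of 24 listed genes for the enzymes, regulators and transport of this route, 23 passed the filter on low counts, 16 fell and 0 rose, with a median log2 difference of -1.82, and 20 of the 23 were lower in every IO tumour than in any O tumour. Beside this, 0.634% of all tested genes fell and 17.6% were lower without overlap. Insig1, the membrane anchor that holds the SREBP escort protein in the endoplasmic reticulum and is itself an SREBP target (Entrez 231070, chr5:28071412-28078662), stood at 38.1, 24.9 and 27.4 CPM in IO-726, IO-728 and IO-731 and at 93.2, 122 and 104 CPM in O-722, O-723 and O-724. All irradiated tumours lay far below all others. The log2 difference was -1.82 ± 0.22 (edgeR adjusted p = 0.00172), the smallest p of the comparison. Insig1 was also the only one of 45 named called genes that kept its call under each of the 16 alternatives with the coded groups, between -2.02 and -1.72, and under the written labels no gene was called.

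Of the early steps of the route, from acetyl-CoA to farnesyl diphosphate, all enzymes named here but Pmvk fell. Hmgcs1, the enzyme that makes HMG-CoA, was at 47.7, 41.7 and 49.7 CPM under radiation and at 203, 217 and 195 CPM without it (log2 difference -2.14 ± 0.30, edgeR adjusted p = 0.00436). The groups did not overlap, and the gene varied little among the 3 tumours of a group. Mvk and Mvd, which phosphorylate and decarboxylate mevalonate, fell by 1.10 and 1.04 on the log2 scale. Idi1, the isomerase that balances the pair of building blocks of the route, was at 6.55, 6.02 and 6.28 CPM in the irradiated tumours and at 49.0, 35.3 and 45.8 CPM in the rest. Fdps, which joins these blocks to farnesyl diphosphate, was 6.82-fold lower under radiation (20.9 ± 2.28 against 142 ± 13.2 CPM, log2 difference -2.77 ± 0.43, edgeR adjusted p = 0.00684). Pmvk, the remaining kinase of this stretch, was not called (log2 difference -0.73 ± 0.29).

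In the later steps, from squalene to cholesterol, the differences were as large. Cyp51, the lanosterol demethylase, was at 19.1, 16.0 and 16.4 CPM against 146, 118 and 147 CPM (log2 difference -2.99 ± 0.51, edgeR adjusted p = 0.0124). Sqle, the epoxidase that commits squalene to sterols, was at 23.6, 34.8 and 24.9 CPM against 225, 212 and 197 CPM (log2 difference -2.93 ± 0.60, edgeR adjusted p = 0.0303). In both genes the irradiated tumours were a small fraction of the others. Fdft1 (squalene synthase), Msmo1 and Sc5d also fell, by 2.14, 2.16 and 1.64 on the log2 scale. Lss, Hsd17b7 and Nsdhl were lower without overlap but were not called (edgeR adjusted p = 0.0669, 0.0513 and 0.0552). Dhcr7, Ebp and Tm7sf2 did not follow the rest, with log2 differences of -0.35 ± 0.26, 0.05 ± 0.14 and 0.49 ± 0.28.

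Genes for transport and control of sterol moved the same way. Stard4, a carrier of sterol between membranes, was at 11.0, 11.4 and 11.4 CPM against 69.5, 67.7 and 66.2 CPM (log2 difference -2.59 ± 0.44, edgeR adjusted p = 0.0126) and tight groups. Srebf2, the gene for SREBP2 itself, fell from 342.7 to 386 CPM in the O tumours to between 89.9 and 103 CPM in the IO tumours (log2 difference -1.92 ± 0.35, edgeR adjusted p = 0.0178). The count of 16 was 19 with the 6 libraries alone, a fit in which 6.77% of all genes fell. It was 20 without 3 libraries of unlike composition outside the comparison, and 7 in the fit of the 12 vector libraries. Leaving out 1 of the 6 tumours gave 1 (without IO-731), 4 (without IO-726), 9 (without O-722), 10 (without IO-728) or 11 (without O-723 or O-724), while the median of the list stayed between -1.95 and -1.72.

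**Figure D3:**
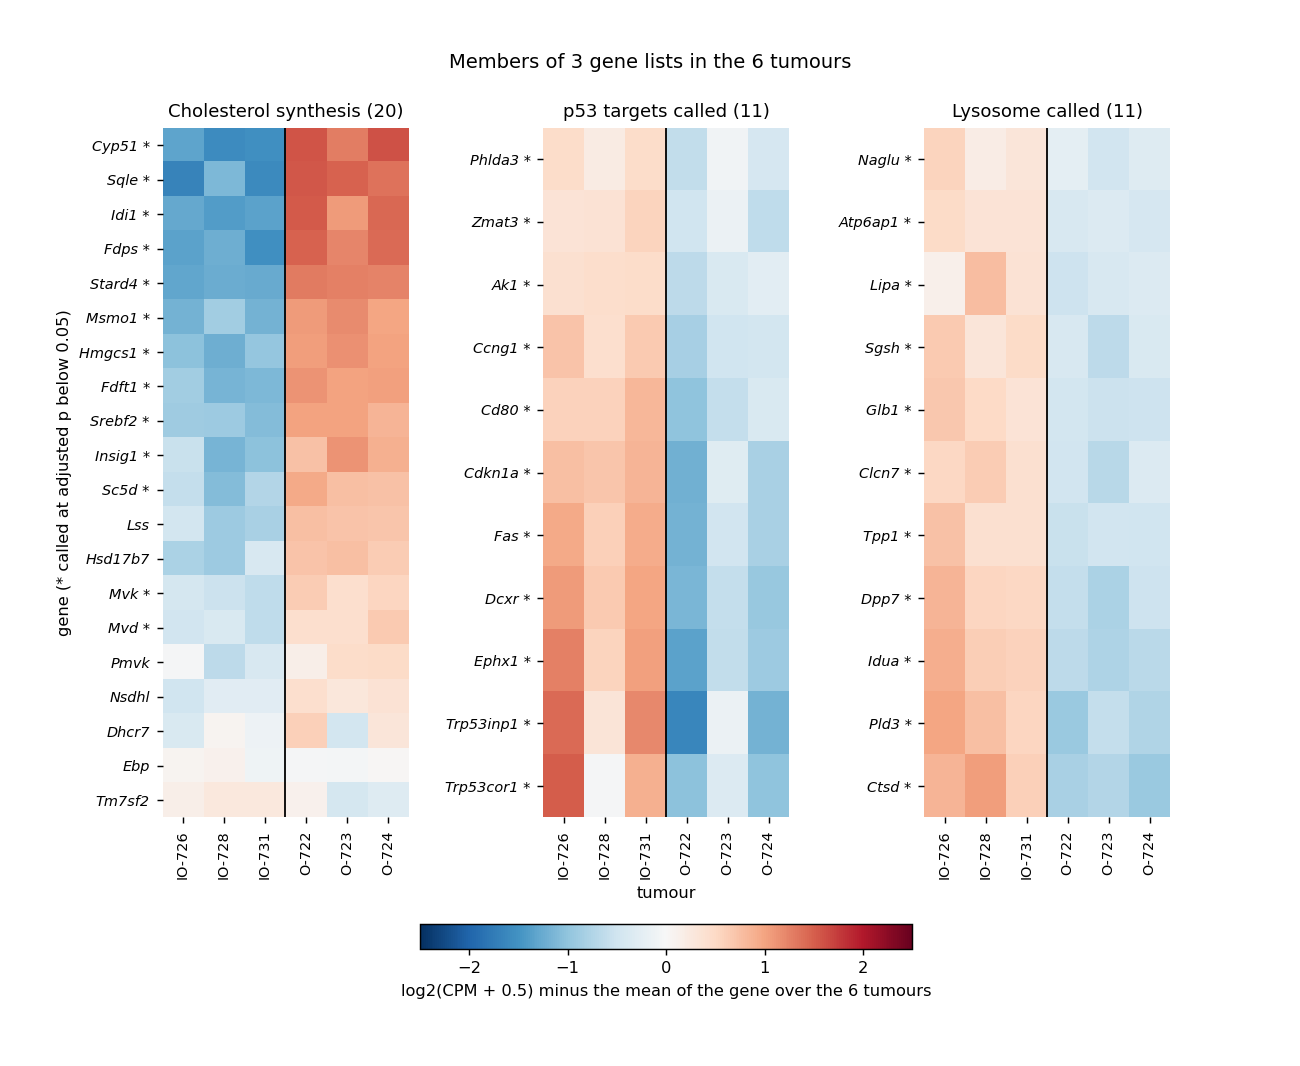
Each cell is the log2(CPM + 0.5) of a gene in a tumour minus the mean of that gene over the 6 tumours, for the cholesterol genes reported here, the 11 called p53 targets and the called lysosomal genes reported here. The cholesterol block is blue in all 3 IO columns and red in all 3 O columns except at its foot, where Dhcr7, Ebp and Tm7sf2 are pale.

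Because the sterol enzymes moved together, their promoters were read for short factor sites. The stretches are the 180 bases before the start of transcription of 4 genes that fell, 5′ to 3′ on the gene's strand, from RefSeq on GRCm38.p6. Capitals mark the sterol regulatory element TCACNCCAC, the site bound by SREBP factors, and the CCAAT box (CCAAT, or ATTGG where it lies on the other strand), the site of the NF-Y factor that acts beside SREBP. They lie at chr13:119690171-119690350 on the plus strand for Hmgcs1, chr5:4104698-4104877 on the minus strand for Cyp51, chr8:64733579-64733758 on the minus strand for Msmo1 and chr15:82147089-82147268 on the plus strand for Srebf2.
Hmgcs1: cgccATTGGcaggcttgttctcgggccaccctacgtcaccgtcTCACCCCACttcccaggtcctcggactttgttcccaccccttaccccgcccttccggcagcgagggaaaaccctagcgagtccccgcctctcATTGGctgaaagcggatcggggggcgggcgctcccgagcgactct
Cyp51: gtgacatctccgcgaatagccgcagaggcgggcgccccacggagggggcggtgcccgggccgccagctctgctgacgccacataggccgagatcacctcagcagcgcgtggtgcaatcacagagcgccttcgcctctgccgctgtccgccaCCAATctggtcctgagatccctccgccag
Msmo1: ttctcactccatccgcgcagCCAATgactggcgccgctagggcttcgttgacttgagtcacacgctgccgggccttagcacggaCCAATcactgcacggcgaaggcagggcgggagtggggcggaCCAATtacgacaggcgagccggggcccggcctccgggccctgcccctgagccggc
Srebf2: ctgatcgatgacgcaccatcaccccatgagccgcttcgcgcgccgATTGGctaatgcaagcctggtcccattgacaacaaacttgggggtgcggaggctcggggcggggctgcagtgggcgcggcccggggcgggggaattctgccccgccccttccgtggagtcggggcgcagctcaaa

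In the 300 bases held for each start (250 before and 50 after it), a CCAAT box on either strand was found for all 16 cholesterol genes that had an entry, and in 16 of their 19 promoters (84.2%). Among these genes are Pmvk, Lss, Hsd17b7, Nsdhl, Dhcr7, Ebp and Tm7sf2, which were not called, so the box does not set apart the members that fell. The same letters are in 37.4% of all 32851 promoters of the table, in 54.3% of the 105 promoters of genes called lower and in 26.9% of the 145 promoters of genes called higher. The genes called lower include the called cholesterol genes, and no share without them was computed. Msmo1 has 3 CCAAT boxes before its start, at -160 to -156, -96 to -92 and -55 to -51, and its capitals can be counted in the sequence above. The sterol regulatory element in the spelling searched was found for 1 of the 16 genes, Hmgcs1, at -137 to -129, and is in 1.24% of all promoters. It was also found for 3 of 42 lysosomal genes and 2 of 30 p53 targets with an entry. A match of letters is a description and shows no binding.

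Genes of fatty acid metabolism divided. Of 16 tested, 5 fell and 0 rose, with a median log2 difference of -0.35, where 0.634% of all tested genes fell. Of the 5, 1 was left with the 12 vector libraries, and 1 without O-724 or 0 without any other of the 6 tumours, with a median between -0.68 (without IO-728) and -0.23 (without IO-731). Fads2, a desaturase of polyunsaturated fatty acids, was at 11.2, 6.33 and 5.16 CPM under radiation and at 75.3, 45.6 and 59.2 CPM without it (log2 difference -2.99 ± 0.70, edgeR adjusted p = 0.0462). Elovl6, an elongase, fell from 60.1 ± 21.3 to 14.2 ± 3.86 CPM, and Acsl3, which activates fatty acids, from 34.7 ± 4.17 to 13.7 ± 2.47 CPM. The other members that fell were Fads1 and Acss2, by 0.82 and 0.62 on the log2 scale. The lipogenic enzymes Fasn and Scd1, named after their values were seen, did not separate the groups. Fasn was at 206, 595 and 209 CPM against 513, 270 and 548 CPM, and Scd1 at 237, 703.4 and 232 CPM against 232, 281 and 613 CPM. IO-728 and O-724, the highest tumours of their groups in both genes, also had the most adipocyte marker transcript, 1009 and 609 CPM summed over 13 genes against 166 to 489 CPM in the other 4, and its part in these values was not tested.

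Transcripts of sterol export genes were mostly higher in the same tumours. This list of 10 exporters and LXR targets, like the lysosomal list below, was chosen after values were seen. Of the 10, 3 rose and 0 fell, with a median log2 difference of 1.67, where 0.821% of all tested genes rose. Abcg1, which moves sterol to HDL (Entrez 11307, chr17:31057694-31117984), was at 315, 378 and 396 CPM in IO and at 66.1, 73.2 and 78.7 CPM in O (log2 difference 2.32 ± 0.43, edgeR adjusted p = 0.0178). Abca1, which loads sterol onto apolipoprotein A-I, was at 798, 422 and 570 CPM against 101, 164 and 125 CPM (log2 difference 2.20 ± 0.48, edgeR adjusted p = 0.0395). Both exporters were above every unirradiated tumour in every irradiated one. Pltp, the phospholipid transfer protein, rose from 269.5 ± 35.1 to 1111 ± 38.0 CPM (log2 difference 2.04 ± 0.49, edgeR adjusted p = 0.0477). Apoe, the lipoprotein component of macrophages and liver, varied most, at 5584, 1656 and 3634 CPM against 520, 403 and 587 CPM, and was not called (log2 difference 2.85 ± 0.77, edgeR adjusted p = 0.0618). With the 6 libraries alone, 6 of the 10 rose, as did 7.81% of all genes tested there. Leaving out 1 of the 6 tumours from the full fit left 1 (without IO-728) or 0 called.

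Lysosomal genes were higher as a group. Of 50 tested, 13 rose and 0 fell, 48 had a log2 difference above 0 and 42 were higher in every IO tumour than in any O tumour. Their median was 0.87. Of all tested genes, 0.821% rose and 17.7% were higher without overlap. Ctsd, the aspartic protease cathepsin D (Entrez 13033, chr7:142375910-142387827), was at 2354.5, 2720 and 1990.4 CPM in IO-726, IO-728 and IO-731 and at 744.6, 788 and 690.1 CPM in O-722, O-723 and O-724. The irradiated tumours were 3.18-fold higher on average, without overlap (log2 difference 1.67 ± 0.31, edgeR adjusted p = 0.0181). Pld3, a lysosomal nuclease, rose from 83.1 to 105 CPM in O to 232 to 315 CPM in IO. Clcn7, the chloride exchanger of the lysosomal membrane, and Tpp1, a peptidase that removes tripeptides, each rose by 1.03 on the log2 scale (edgeR adjusted p = 0.0196 and 0.0262). The enzymes Dpp7, Idua, Naglu, Sgsh, Glb1 and Lipa, the last of which frees cholesterol from its esters, and the proton pump subunit Atp6ap1 were among the rest, between 0.70 and 1.44. Arsa and Arsb were the 2 members below 0 (-0.17 and -0.62, not called). The 13 became 37 with the 6 libraries alone, a fit in which 7.81% of all genes rose. When 1 of the 6 tumours was left out of the full fit, they became 1 (without IO-728 or O-724) or 0 (without any of the others).

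The promoter of Ctsd is shown because it holds the palindrome TCACGTGA, in capitals, the core of the CLEAR element bound by TFEB, the factor that activates lysosomal genes. The 180 bases before the start lie at chr7:142387828-142388007 on the minus strand, and the match is at -99 to -92.
Ctsd: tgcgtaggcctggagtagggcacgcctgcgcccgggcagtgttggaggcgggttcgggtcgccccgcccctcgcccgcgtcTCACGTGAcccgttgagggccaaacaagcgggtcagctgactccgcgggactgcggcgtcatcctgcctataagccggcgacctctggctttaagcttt

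This palindrome, which reads the same on both strands, was found in 6 of 48 promoters of lysosomal genes (12.5%). It is in 0.974% of all promoters, in 1.59% of those of tested genes, in 3.45% for genes called higher and in 1.9% for genes called lower. The 6 lysosomal promoters belong to Ctsa, Ctsd, Gla, Mcoln1, Clcn7 and Dpp7, of which Ctsd, Clcn7 and Dpp7 rose.

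Macrophage transcripts moved with the lysosomal and export genes. Summed over 23 markers, macrophage and monocyte genes took 16355 to 24148 CPM in the 3 IO tumours and 6374 to 7173 CPM in the 3 O tumours, but edgeR called 0 of the 23, with 13 at an unadjusted p below 0.05 (22.1% of all tested genes were), and DESeq2 called 8. The median of their log2 differences was 1.05. In 14 of the 23, every IO tumour was higher than every O tumour, as in 17.7% of all tested genes. Lyz2, lysozyme of myeloid cells, was at 6784, 5773 and 4892 CPM against 1923, 1750 and 1973 CPM (log2 difference 1.63 ± 0.47, edgeR adjusted p = 0.0749). Adgre1, the F4/80 antigen, named after its values were seen, was at 541, 708 and 711 CPM against 257, 135 and 271 CPM. These groups were separate by a wide margin, whereas the chemokine receptor gene Cx3cr1 lay the other way, at 8.25, 14.3 and 20.9 CPM against 186, 40.9 and 195 CPM (edgeR adjusted p = 0.068). The 6 libraries alone gave 14 risen and 1 fallen, beside 7.81% risen and 6.77% fallen of all genes tested there. DESeq2 called more genes in all than edgeR did with the same 24 libraries. Apoe is in both the macrophage and the export list, no gene is in both the macrophage and the lysosomal list, and the part of macrophage transcript in the lysosomal and export values was not tested. In bulk tumours, more cells of a type and more RNA per cell cannot be told apart.

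**Figure D4:**
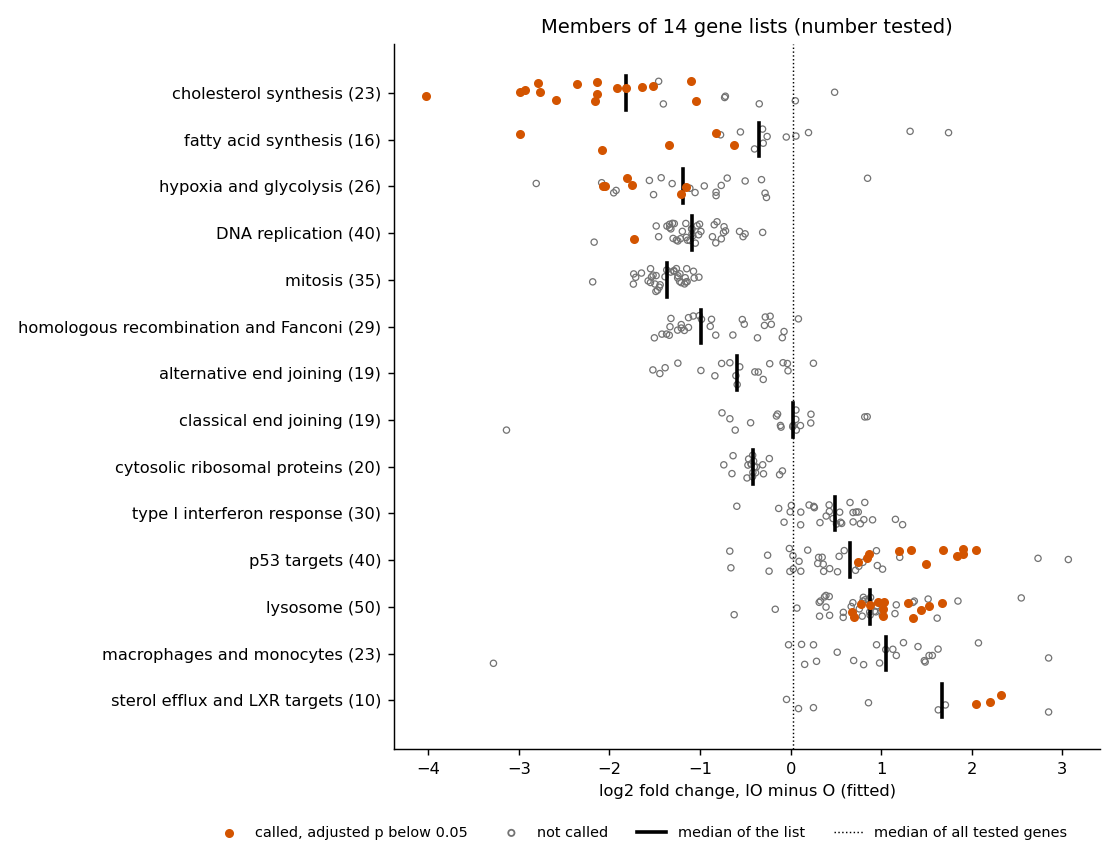
Fitted log2 fold change of IO minus O for every tested member of 14 gene lists, with the number tested in brackets. Orange points were called, open points were not, black bars are list medians and the dotted line is the median of all tested genes, 0.03. Mitosis genes lie entirely below 0 without a call, and cholesterol genes hold the most calls, 16, of the 14 lists.

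Mitosis genes were lower in every irradiated tumour, yet none was called by edgeR with 24 libraries. In all 35 members, spindle, kinetochore and mitotic kinase genes, the 3 IO tumours were below the 3 O tumours, and the median log2 difference was -1.37. Such a separation to the lower side was seen in 17.6% of all tested genes. Mki67, the proliferation marker, was at 113, 175 and 110 CPM in IO and at 444, 459 and 423 CPM in O (log2 difference -1.74 ± 0.59, edgeR adjusted p = 0.111). Summed over the list, mitosis genes took 1582 to 2078 CPM under radiation and 4400 to 4717 CPM without it. Espl1, separase, which cuts the ring that holds sister chromatids, had the smallest p of the list (31.6, 43.3 and 33.1 against 109, 97.3 and 98.5 CPM, edgeR adjusted p = 0.0788). With the 6 libraries alone all 35 fell, beside 6.77% of all genes tested there. All 35 also fell without the 3 libraries of unlike composition, and the DESeq2 test called 6 of them lower. In the fit of 24 libraries, 19 of the 35 had an unadjusted p below 0.05, as did 22.1% of all tested genes. Leaving out 1 of the 6 tumours kept the median between -1.47 and -1.31.

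DNA replication genes were also lower, with all 40 members below 0 and a median of -1.09. The only called member was E2f2, an activator of S phase genes, at 3.99, 8.70 and 5.43 CPM against 21.2, 16.7 and 22.3 CPM (log2 difference -1.73 ± 0.41, edgeR adjusted p = 0.0475). Non-overlapping groups were seen in 28 of the 40, all lower in IO, beside 17.6% of all tested genes. O-723 was closer to the irradiated tumours in this list, with a sum of 2173 CPM against 3405 and 4097 CPM in O-724 and O-722 and 1205 to 1841 CPM in IO. The 6 libraries alone gave 25 fallen, beside 6.77% of all genes tested there.

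DNA repair genes gave 1 call. In alternative end joining, the error-prone joining of broken ends through short matches, edgeR called 0 of 19 members (10 at an unadjusted p below 0.05, 5 called by DESeq2), 18 were below 0 and the median was -0.59. Polq, polymerase theta, the defining enzyme of this route, was at 3.48, 5.48 and 4.51 CPM under radiation and at 13.4, 9.66 and 12.1 CPM without it (log2 difference -1.39 ± 0.56, edgeR adjusted p = 0.166). Lig3, the ligase that seals these joints, was at 31.5, 35.3 and 30.2 CPM against 52.98, 46.2 and 46.9 CPM (log2 difference -0.59 ± 0.19, edgeR adjusted p = 0.0932). Both were lower in all irradiated tumours, short of the threshold. Parp1, the main target of olaparib, overlapped between the groups, at 61.4, 87.8 and 71.1 CPM against 140, 70.4 and 115 CPM, and Parp2 differed by -0.23 ± 0.16. Classical end joining, which needs no matching bases, had 0 of 19 called by edgeR (5 at an unadjusted p below 0.05, a share near the 22.1% of all tested genes, and 2 by DESeq2) and a median of 0.02. Homologous recombination and Fanconi genes had 0 of 29 called by edgeR (9 unadjusted, 3 by DESeq2) and a median of -0.98. Checkpoint genes had 0 of 15 (10 unadjusted, 4 by DESeq2) and a median of -0.62. Base excision repair had 1 of 18 fallen, Tdg, a glycosylase that removes thymine from mismatches, from 19.1 ± 1.41 to 9.24 ± 0.42 CPM (log2 difference -1.05 ± 0.23, edgeR adjusted p = 0.0428). With the 6 libraries alone, 6 alternative end joining, 13 homologous recombination and Fanconi and 5 checkpoint genes fell. In that fit, 6.77% of all genes fell.

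Hypoxia and glycolysis genes were lower in the irradiated tumours, and 1 unirradiated tumour weighed on their means. Of 26 tested, 6 fell and 0 rose, with a median of -1.18, where 0.634% of all tested genes fell. Vegfa, the endothelial growth factor, was at 28.3, 48.2 and 27.5 CPM in IO and at 75.8, 191 and 81.6 CPM in O (log2 difference -1.75 ± 0.34, edgeR adjusted p = 0.0209). Slc2a1, the glucose transporter GLUT1, was at 55.4, 103 and 60.1 CPM against 173, 600 and 141 CPM (log2 difference -2.07 ± 0.47, edgeR adjusted p = 0.0435). O-723 was the highest tumour in both, and IO-728 the highest of the irradiated ones. The others that fell were Ankrd37, the lactate exporter gene Slc16a3, Pdk1, which holds pyruvate out of mitochondria, and Ldha. Summed over the list, O-723 had 14132 CPM, against 7787 and 7923 CPM in O-722 and O-724 and 3983 to 5921 CPM in IO. Without O-723 the median of the list was -0.76. The count of 6 became 3 without O-724, 2 without IO-728, 1 without O-722 and 0 without IO-726, IO-731 or O-723. It was 14 with the 6 libraries alone, a fit in which 6.77% of all genes fell.

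Among genes outside these lists, Chil3, a chitinase-like protein of myeloid cells, had the largest rise under the rule for named genes, at 31.3, 8.49 and 10.3 CPM against 0.991, 1.76 and 0.567 CPM (log2 difference 3.91 ± 0.95, edgeR adjusted p = 0.0477). Serpine2, an inhibitor of thrombin and plasminogen activators, was at 30.8, 43.4 and 38.5 CPM against 2.65, 4.01 and 6.83 CPM (log2 difference 3.06 ± 0.59, edgeR adjusted p = 0.0207). Tnfsf4, the OX40 ligand that costimulates T cells, was nearly equal in the 3 irradiated tumours, at 6.08, 6.15 and 6.10 CPM, against 0.471, 0.466 and 1.36 CPM (log2 difference 2.99 ± 0.68). Each of these genes separated the groups without overlap. Apod, a lipocalin, rose from 34.5 ± 11.2 to 218 ± 104 CPM, and Tfec, a relative of TFEB, from 3.96 ± 0.94 to 19.3 ± 3.17 CPM. Fam180a, Pou3f1, a POU domain transcription factor, Hoatz, Wfdc17 and the zinc finger gene Zfp976, with the exporters Abcg1 and Abca1, completed the 12 largest rises, at log2 differences of 2.10 to 3.27. Inflammation genes gave 1 call of 22, Il1rn, the antagonist of the interleukin 1 receptor, at 34.2, 55.9 and 30.8 CPM against 17.8, 18.0 and 14.4 CPM (log2 difference 1.27 ± 0.27, edgeR adjusted p = 0.038). Of 22 senescence genes, 1 rose (Glb1) and 1 fell (Vegfa), both already counted above. Of the unfolded protein response, 1 of 18 rose, the chaperone gene Dnajb9 (31.3 ± 5.03 to 60.5 ± 2.53 CPM). At an unadjusted p below 0.05 were 4 of 22 inflammation, 6 of 22 senescence and 6 of 18 unfolded protein response genes. Over all tested genes, the shares were 22.1% unadjusted and 1.46% called.

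Siglech, a lectin of plasmacytoid dendritic cells, had the largest fall, at 0.0258, 0.18 and 0.0997 CPM under radiation and at 4.76, 2.12 and 5.57 CPM without it (log2 difference -5.30 ± 1.09, edgeR adjusted p = 0.0303). It was almost absent from all irradiated tumours, and it was the 1 called gene among 16 dendritic cell markers, whose median was -0.60. Of the 16 markers, 3 were higher in IO without overlap and 7 lower, beside 17.7% and 17.6% of all tested genes. Summed, the 16 took 884 to 1008 CPM in IO and 866 to 870 CPM in O. Ak5, an adenylate kinase, fell from 11.3, 4.12 and 2.02 CPM in O to 0.335, 0.515 and 0.448 CPM in IO, and H1f10, a linker histone, from 31.9, 47.2 and 14.1 CPM to 5.21, 6.23 and 3.94 CPM. The O tumours differed widely among themselves in both genes while the IO tumours did not. Cyp51, Fads2, Sqle, Idi1, Fdps, Stard4 and Msmo1, also among the 12 largest falls, belong to the sterol and fatty acid lists above.

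The label of a squamous carcinoma was checked against keratins, all named after their values were seen. Krt5 and Krt14, keratins of basal squamous cells, were at 0.18 and 0.155 CPM in IO-726, at most 1.67 CPM in IO-728 and at most 3.96 CPM in the O tumours. Only IO-731 held more, with 89.2 and 97.7 CPM, together with Krt1 (117 CPM), Krt10 (199 CPM) and Flg (15.5 CPM), which mark the cornified layer of skin and were at or below 5.55 CPM elsewhere among the 6. Thus the basal keratins that define squamous epithelium were near 0 in 5 of 6 tumours, while Krt8 and Krt18, keratins of simple epithelium, were present in all. Krt18 was at 60.3, 110 and 90.8 CPM in IO and at 534, 444 and 244 CPM in O (edgeR adjusted p = 0.223). With 24 libraries, neither edgeR nor DESeq2 called any of 21 epithelial and 15 cornified markers. Of these, 6 and 4 had an unadjusted p below 0.05, shares near the 22.1% of all tested genes. With the 6 libraries alone, Krt8 and Krt18 fell and the cornified marker Tgm1 rose, where 14.6% of all genes were called. The epithelial markers summed to 536 to 1002 CPM in IO and to 1162 to 1840 CPM in O, although 15 of the 21 had a log2 difference above 0. The cornified markers summed to 490 CPM in IO-731 and to 13.4 to 33.5 CPM in the other 5.

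Lymphoid markers set O-724 apart. Cd79a, of the B cell receptor, was at 14.3 CPM and Ms4a1 (CD20) at 13.6 CPM there, where the other 5 tumours had at most 0.36 and 0.438 CPM. Of 10 B and plasma cell markers edgeR called 0 (5 at an unadjusted p below 0.05, 2 by DESeq2), and their median of -3.21 became 0.40 without O-724. Cd22, a B cell lectin named after its values were seen, lay the other way, at 46.5, 44.2 and 43.3 CPM in IO and 11.9, 4.92 and 22.5 CPM in O (log2 difference 1.77 ± 0.55, edgeR adjusted p = 0.0893). Xbp1, a secretory cell factor also named so, was at 156 to 169 CPM in IO and 121 to 150 CPM in O. T cell markers summed to 420 CPM in O-724, against 117 to 248 CPM in the others. With 24 libraries neither tool called any of the 19 (4 at an unadjusted p below 0.05). With the 6 libraries alone, 2 of them fell, beside 6.77% of all genes tested there. Skeletal muscle genes summed to 1501 and 1867 CPM in IO-728 and O-724 and to 274 to 505 CPM in the rest, on both sides of the comparison. Neutrophil markers summed to 214 to 278 CPM in IO and to 152 to 157 CPM in O with 0 of 14 called by edgeR (5 unadjusted, 3 by DESeq2). Cytotoxic cell markers, such as the granzyme genes, summed to 642 to 1627 CPM in IO and 276 to 517 CPM in O with 0 of 19 called by edgeR (5 unadjusted, 1 by DESeq2). Type I interferon response genes had 0 of 30 called by edgeR (8 unadjusted, 1 by DESeq2) and a median of 0.49. The shares unadjusted among T cell, cytotoxic and interferon genes were near the 22.1% of all tested genes. Fibroblast and matrix genes had 0 of 21 (2 unadjusted, 1 by DESeq2) and a median of 0.21, which was -0.02 without IO-731 and 0.46 without IO-726. Cytosolic ribosomal protein genes had 0 of 20 called by edgeR (8 unadjusted, 2 by DESeq2), a median of -0.42, and lower levels in every irradiated tumour for 19 of 20. Of all tested genes, 17.6% were lower in this way.

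The change was set beside that of radiation without olaparib in vector tumours (IR, coded I, against sham, coded S) and that of radiation under olaparib in miR-21-5p tumours (EIO against EO), 3 against 3 each. The 3 comparisons share no tumours, but share the estimate of spread in the fit. Radiation alone gave 1659 calls (10.0%), 764 higher (4.61%) and 895 lower (5.4%), and EIO against EO gave 1122 (6.78%), 895 higher (5.4%) and 227 lower (1.37%). Of the 241 genes called in IO against O, 142 were also called in the same direction by radiation alone (58.9% of the 241, 8.56% of the 1659) and 113 in the miR-21-5p tumours (46.9% and 10.1%). None was called in opposite directions. In sign alone, 239 and 238 of the 241 matched, and 80 genes were called in all 3 comparisons, each in 1 direction. The share of all tested genes that matched in sign was not computed, so these counts have no background beside them.

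Insig1 differed by -1.82 ± 0.22 under olaparib, by -1.73 ± 0.22 without it and by -1.92 ± 0.22 in the miR-21-5p tumours. Cdkn1a differed by 1.50 ± 0.24, 1.28 ± 0.24 and 1.41 ± 0.24 in the same order, and Abcg1 by 2.32 ± 0.43, 1.93 ± 0.42 and 1.80 ± 0.42. Each of the other values differed from that under olaparib by less than 1 standard error of the difference. Of these genes, only Abcg1 is in the plot of 3 comparisons, where bars are the standard error of each change. Of 23 cholesterol genes, 21 fell with radiation alone and 19 in the miR-21-5p tumours, with medians of -1.44 and -1.91. The median of lysosomal genes was 0.87 under olaparib, 0.38 without it and 0.63 in the miR-21-5p tumours, and that of ribosomal protein genes -0.42, -0.82 and -0.43. The median of type I interferon genes was 0.49, 0.12 and 0.74. Such medians were not tested against each other.

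No difference between the comparisons reached the threshold. For the change under olaparib minus that without it, edgeR called 0 genes (0%) with 920 at an unadjusted p below 0.05 (5.56%), and DESeq2 called 1. For the change in vector minus that in miR-21-5p tumours, edgeR called 0 (0%) with 926 at an unadjusted p below 0.05 (5.59%), and DESeq2 called 6. The smallest adjusted p-values were 0.873 and 0.891. Ak5 differed by -3.74 ± 0.87 in the vector tumours and by -0.70 ± 0.77 in the miR-21-5p tumours, a difference of -3.04 ± 1.12 (edgeR adjusted p = 0.891), and Hoatz by 2.86 ± 0.49 and 0.86 ± 0.46, a difference of 2.00 ± 0.66 (edgeR adjusted p = 0.891). The standard error of such a difference was 0.30 for Insig1, 0.34 for Cdkn1a and 0.58 for Abcg1, and a p above the threshold does not show that the responses were alike.

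**Figure D5:**
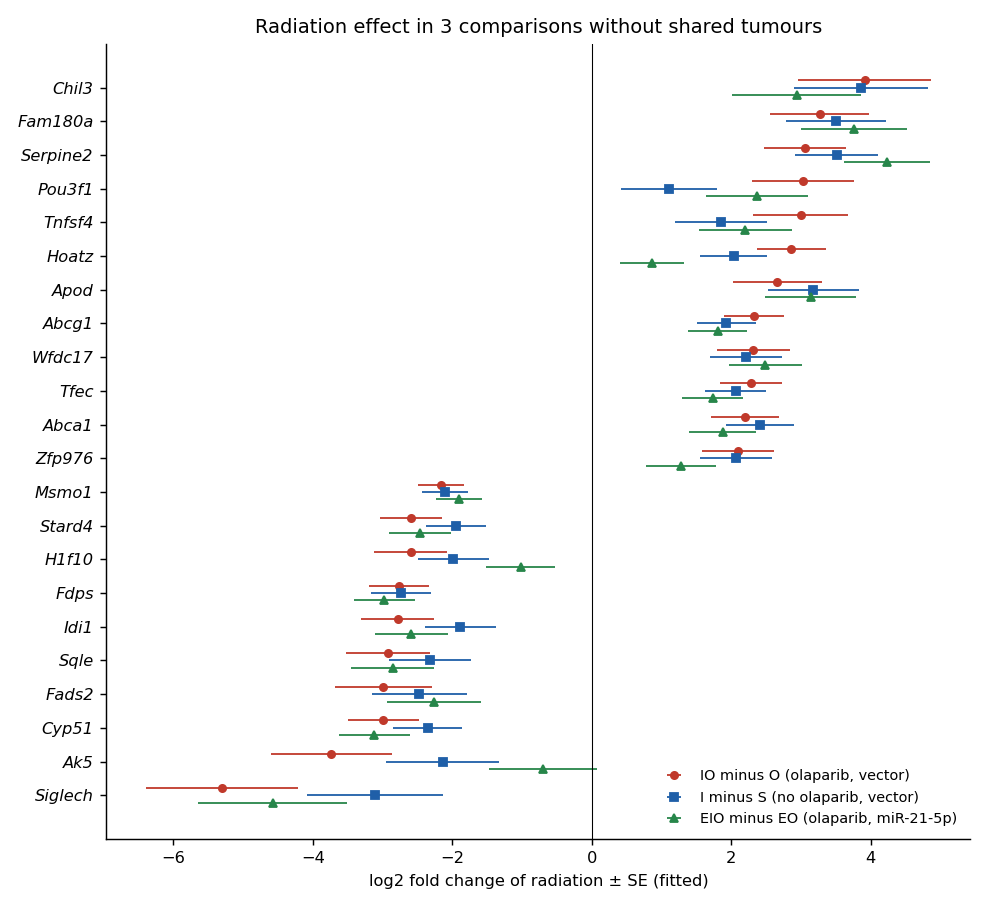
Fitted log2 fold change of radiation with its standard error for the largest rises and falls of IO against O that are named in the text, in 3 comparisons without shared tumours. Red circles are IO minus O, blue squares I minus S and green triangles EIO minus EO, and all genes shown have the same sign in all 3.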

How the data were processed

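RNA of 24 SCC7 tumours was sequenced, and the deposited table holds the authors' raw read counts for 27368 mouse genes. Per the submitters' processing notes, fastp, HISAT2 and HTSeq were used with the build mm10; versions, strand setting and annotation are not given in the sources used here. Tumours were grouped by the letters of their column code. The counts were fitted with edgeR 4.0.16 in R 4.3.3 (filterByExpr, TMM, quasi-likelihood test) over all 24 libraries in 8 groups, with 16 residual degrees of freedom, and p-values were adjusted over 16560 tested genes. The fit was also run on simulated counts without libraries of unlike composition, which cannot show how it performs on these tumours. Totals of the 6 tumours compared were 38263109 to 39514018 counts. The edgeR p-values set a difference against the spread between tumours of a group, estimated over all 24 libraries and not from the 6 tumours alone. No replicate pair agreed within sampling noise (smallest chi-square per gene 14.4).

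The members and the 41 gene lists were chosen with earlier results of these data known. The lysosomal and sterol export lists and the 3 promoter motifs were added after values had been seen. Named genes were the 12 largest called changes each way, with a mean of at least 1 CPM, no overlap and no predicted gene or pseudogene, then in every list the 3 genes of lowest p, plus a preset group such as Mki67, Parp1 and Polq. Other genes are named as complete sets of called members or were chosen after their values were seen. Of the list entries, 825 matched by symbol, 26 by an older symbol, 1 by a RefSeq symbol and 7 not at all. Gene coordinates and promoters are from RefSeq on GRCm38.p6, the assembly of mm10, and 26380 IDs had a position. Alternatives included DESeq2 1.42.0, limma 3.58.1 (voom with quality weights), other scalings, no filter, fewer libraries, leaving out each library, and the written labels. Some members of these lists are not reported here by name, and counts and medians include them.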

Additional observations from a re-analysis of the deposited data

How the results depend on the processing

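The 241 calls for radiation under olaparib in vector tumours became 254 with DESeq2 size factors and 179 with total counts (67.0% higher, against 56.4%). They became 1430 with the DESeq2 test, 5091 with voom and quality weights, 83 with no filter on low counts, 2195 with the 6 libraries alone, 16 with the 12 vector libraries (31.2% higher) and 0 under the written labels. Alternatives chosen after seeing the data gave 2719 without I-732, S-761 and EIO-744 (39.9% higher), 510 in the 5 libraries without IO-731 and 1223 in the 5 without O-724. Leaving out 1 of the 24 libraries gave between 1 (without IO-731) and 1733 (without EIO-744). Counts over 1.5 times the main one also came without I-739 (1227), and those under it by as much came without any of the 6 tumours compared, without S-758 (78), S-759 (79), EI-742 (84), EI-745 (73), EIO-713 (135), EO-701 (71), EO-703 (93), EO-762 (74), ES-706 (66), ES-709 (70) or ES-741 (68). The cause was not tested. The difference from radiation without olaparib had 0 calls, 1 with the DESeq2 test, and 0 without any library. The difference from miR-21-5p tumours had 0 calls, 6 with the DESeq2 test, and 0 to 1 (without EIO-744) when a library was left out. The unscaled Cdkn1a difference stayed between 1.29 and 1.72. Of 149 named genes 45 were called, 44 of these lost the call in at least 1 of the 16 alternatives with the coded groups, and 0 reversed. Of the uncalled, 3 reversed in sign, each with 1 tumour left out. Flg was -2.62 without IO-731 and at most 8.59 when another was left out. Cd79a was 0.36 without O-724 and -4.77 at the lowest. Pax5 was 1.20 without O-724, 1.22 in the 5 libraries without it, and -4.19 at the lowest. No paired analysis was possible because the tumour numbers in the labels are unique to each tumour. At 3 tumours a group, an exact permutation test cannot go below p = 0.1, and genes of low count such as Siglech rest on few reads.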
